A study of Mus musculus with 2 samples.

Results

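Sterol and fatty acid synthesis genes were examined in sorted aortic macrophages of dyslipidemic mice. The set was a fixed list of 34 gene symbols, each of which matched 1 of the 54532 genes in the deposited expression values. It held 17 enzymes of sterol synthesis, 11 enzymes of fatty acid synthesis, elongation and desaturation, and 6 genes of sterol sensing, control and transport.

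RNA sequencing compared the PDR group with the SKYD group, which stand for phlegm-dampness retention and spleen and kidney Yang deficiency. Both were male ApoE-/- mice on C57BL/6J, labelled as 6 weeks old, and all lacked the Apoe gene product that clears lipoprotein remnants. PDR mice had a high-fat feed with lard, sucrose, cholesterol and sodium cholate for 4 weeks. SKYD mice were gavaged for 4 weeks with 10 mg/kg of propylthiouracil daily, which blocks the making of thyroid hormone, and then had the same feed for 2 weeks. Syndrome, drug, feeding time and age at sampling cannot be told apart. All mice were fasted before sampling, and the cells sorted on F4/80 and CD11b from 5 mice were pooled into 1 library for each group. The difference between mice was therefore not measured, no test was possible, and every comparison is between 2 libraries.

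Animal cells build cholesterol from acetyl-CoA through mevalonate and squalene, and build fatty acids from the same precursor through malonyl-CoA. SREBP-2, made from Srebf2, mainly drives genes of the sterol branch, and SREBP-1, made from Srebf1, mainly drives those of the fatty acid branch. When sterols are plentiful, INSIG proteins hold SCAP and the SREBPs in the endoplasmic reticulum and both branches are transcribed less. Macrophages that take up much cholesterol are known for low sterol synthesis, and liver X receptors raise Srebf1 and Scd genes in them.

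The PDR library held 23086889 recovered reads on genes and the SKYD library 25427863. Levels are given as FPKM, the fragments of a gene scaled to its length and to a size for the library. That size was 1.02 times the reads on genes in PDR and 0.983 times in SKYD. Shares of reads, which use the reads on genes, thus have another denominator than FPKM. Differences are log2(FPKM + 1) in PDR minus SKYD, with a 95% interval (Clopper-Pearson, exact) that treats the share of reads of a gene found in PDR as a binomial draw. It covers counting error only. The added 1 makes these differences smaller than the log2 of the FPKM ratio, most of all for low genes, and over 2-fold refers to the former. Cells other than macrophages were represented in both libraries. Macrophage markers took 3.38% of reads in PDR and 6.29% in SKYD, mostly from Lyz2, a lysozyme gene that neutrophils also express, and 0.407% and 0.947% without it. The erythroid markers, mainly globins, took 1.71% and 2.21%. Neutrophil markers took 0.330% and 0.239%, hepatocyte markers 0.291% and 0.0845%, B cell markers 0.375% and 0.0697%, and T and NK cell markers 0.0547% and 0.300%. In such bulk RNA, fewer cells of a type and less RNA per cell cannot be told apart.

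Most of the compared genes of the set had similar levels in the libraries, as did most of all compared genes. Comparison was limited to genes whose FPKM averaged 1 or more over the libraries, which held for 25 of the 34. Scd1, the main stearoyl-CoA desaturase of liver and fat, was over 2-fold higher in PDR and was the only one past 2-fold, 1 of 25, against 7.38% of all 10399 genes compared. None was over 2-fold higher in SKYD, against 6.91% of all genes. A further 4 differed by more than 1.5-fold, namely Acat2 and Fads2, which were higher in PDR, and Mvd and Elovl5, which were higher in SKYD. The other 20, or 80.0%, lay within 1.5-fold, as did 69.8% of all genes. They were 11 of 13 sterol enzymes, 4 of 7 fatty acid enzymes and all 5 compared genes of sterol sensing, control and transport. The counting interval lay above 0 for 11 of the 25, against 36.8% of all genes compared, and below 0 for 7, against 37.7%, and it held 0 for the other 7. At this depth such intervals thus left out 0 for most genes, whether of these pathways or not.

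**Figure D1:**
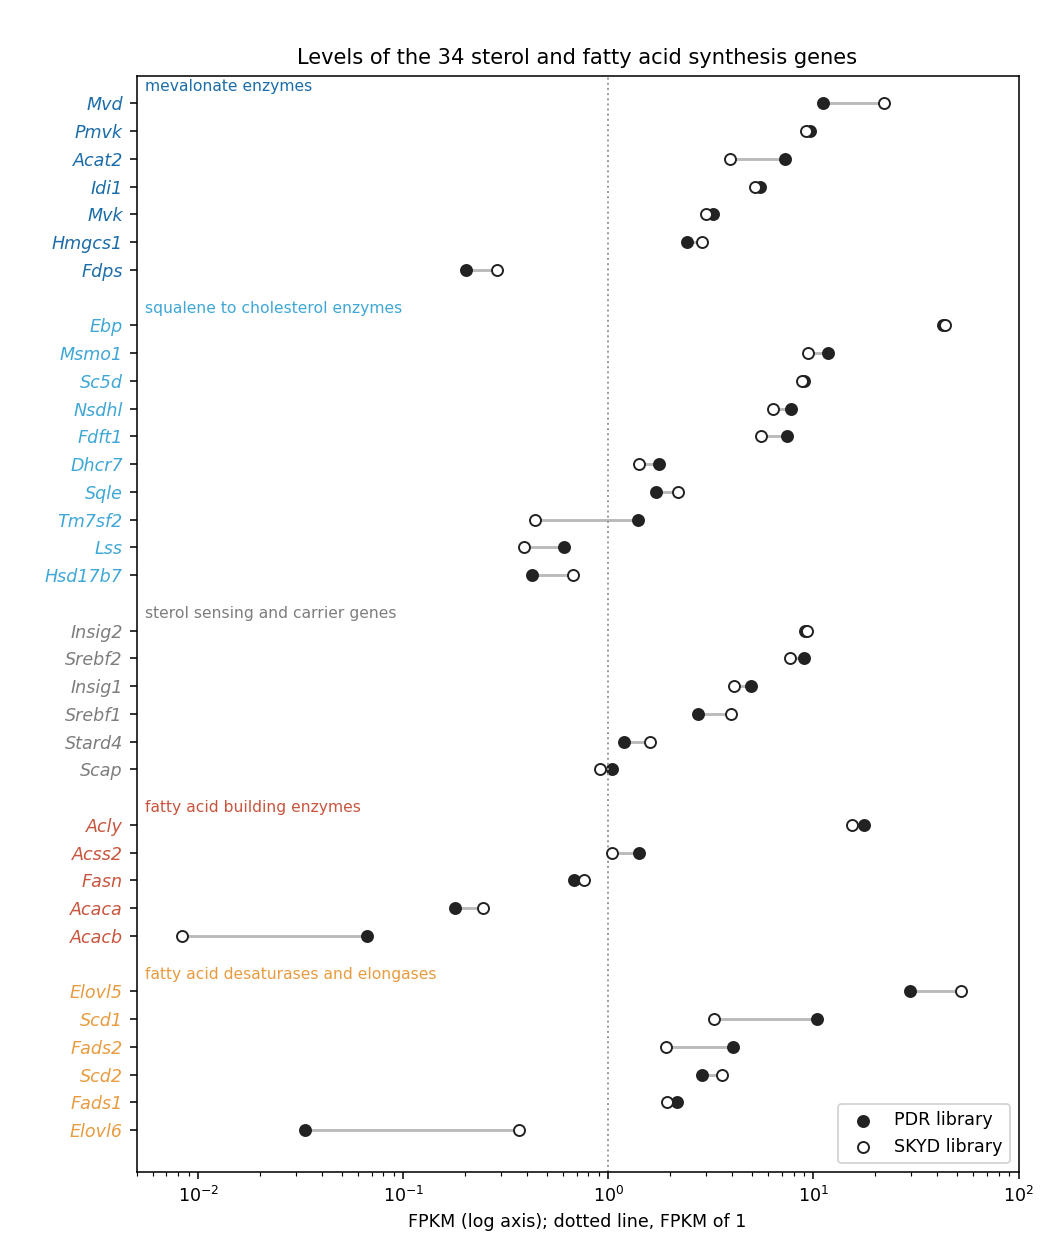
Level of each of the 34 genes in FPKM, on a log axis, with a filled point for the PDR library, an open point for the SKYD library and 1 library for each. Most pairs of points lie close together, and the widest gaps are those of Elovl6 and Acacb, whose levels were under 0.4, followed by Tm7sf2 and Scd1.

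The levels kept a similar order in the libraries, with a Spearman rho of 0.958 over the 34 genes, whose values share the same 2 libraries and gene lengths. None of the 34 was listed at 0. The most abundant by mean FPKM were Ebp and Elovl5, and 12 of the 34 were above the median of all compared genes, which was 6.18. The least abundant was Acacb.

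Promoters are shown for the 4 genes between 1.5-fold and 2-fold, together with that of Hmgcs1. Of the 27 genes with a promoter entry, Hmgcs1 alone had the letters of the sterol element searched. The sequences are the 250 bases before the RefSeq start site in GRCm38.p6, written 5′ to 3′ on the strand of the gene. Capitals mark matches on either strand to TCACNCCAC (a sterol regulatory element, bound by SREBPs), CACGTG (E-box), CCAAT (bound by NF-Y) and GGGCGG (GC box, bound by Sp1), and no match shown overlaps another. Hmgcs1 lies at chr13:119690101-119690350 on the plus strand, Mvd at chr8:122443423-122443672 on the minus strand, Acat2 at chr17:12960726-12960975 on the minus strand, Elovl5 at chr9:77917115-77917364 on the plus strand and Fads2 at chr19:10101504-10101753 on the minus strand.
Hmgcs1: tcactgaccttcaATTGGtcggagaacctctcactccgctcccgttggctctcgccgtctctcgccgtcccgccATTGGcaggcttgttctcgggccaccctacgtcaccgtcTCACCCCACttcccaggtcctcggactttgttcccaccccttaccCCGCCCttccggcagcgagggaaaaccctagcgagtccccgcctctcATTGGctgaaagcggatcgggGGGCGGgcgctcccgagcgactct
Mvd: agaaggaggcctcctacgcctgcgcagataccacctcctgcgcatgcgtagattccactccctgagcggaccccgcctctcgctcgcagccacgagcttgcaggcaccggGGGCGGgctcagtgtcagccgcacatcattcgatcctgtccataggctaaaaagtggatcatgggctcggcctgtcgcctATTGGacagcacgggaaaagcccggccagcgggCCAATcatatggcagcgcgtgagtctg
Acat2: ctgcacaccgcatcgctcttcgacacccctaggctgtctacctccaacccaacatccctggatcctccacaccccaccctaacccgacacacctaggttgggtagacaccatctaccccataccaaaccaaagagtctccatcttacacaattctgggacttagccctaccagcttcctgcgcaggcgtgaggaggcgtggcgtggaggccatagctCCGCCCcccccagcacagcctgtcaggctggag
Elovl5: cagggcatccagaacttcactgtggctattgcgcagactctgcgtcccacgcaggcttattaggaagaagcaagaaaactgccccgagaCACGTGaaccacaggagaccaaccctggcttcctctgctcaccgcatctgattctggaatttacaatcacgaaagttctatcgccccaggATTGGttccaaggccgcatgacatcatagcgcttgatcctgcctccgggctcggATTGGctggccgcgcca
Fads2: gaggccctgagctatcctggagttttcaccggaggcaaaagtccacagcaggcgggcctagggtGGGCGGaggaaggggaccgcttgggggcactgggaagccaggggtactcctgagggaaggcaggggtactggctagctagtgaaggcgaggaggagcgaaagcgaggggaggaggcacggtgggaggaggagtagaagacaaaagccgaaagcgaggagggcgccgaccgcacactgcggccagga

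Windows of 300 bases, from 250 before to 50 after the start, were matched for 27 of the 34 genes. Those not matched were Fdps, Fdft1, Sqle, Stard4, Scd1, Scd2 and Fads1. CCAAT stood in the windows of 13 of 14 sterol enzymes and 5 of 8 fatty acid enzymes, against 41.1% of all 27025 genes with a window and 44.1% of the 7250 that were also compared here. GGGCGG stood in 13 of 14 and 3 of 8, against 38.2% and 64.7%. CACGTG stood in 3 of 14 and 1 of 8, against 8.09% and 11.8%. TCACNCCAC was found in Hmgcs1 alone, 1 of 27, against 1.44% of all genes and 1.42% of those compared. In Hmgcs1 it began 137 bases before the start, with CCAAT matches on the minus strand on both sides of it. These are matches of letters, not measured binding sites. Hmgcs1, with all but the E-box, differed by less than 1.5-fold between the libraries. Mvd and Acat2 differed in opposite directions, and the former had CCAAT and GGGCGG whereas the latter had GGGCGG only.

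Among the 7 enzymes of the mevalonate route, 6 were compared, 4 of them higher in PDR and 2 higher in SKYD, with a median difference of 0.06. Acat2 joins acetyl-CoA units at the entry to the route. It had 436 reads in PDR and 249 in SKYD, an FPKM of 7.30 and 3.92 with a log2 difference of 0.76 (95% CI 0.57 to 0.94). Of its 100-base windows, 28.9% also occur in transcripts of other genes, Acat3 and Tcp1, so its reads are uncertain. Hmgcs1, the synthase that makes HMG-CoA, had 261 and 329 reads, a log2 difference of -0.18 (95% CI -0.35 to -0.004).

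Mvd had the largest difference among the compared sterol enzymes. It encodes the decarboxylase that yields isopentenyl diphosphate, the building block of all isoprenoids. Its gene (ENSMUSG00000006517) lies on chromosome 8 from 122433601 to 122443422 of GRCm38. It had 487 reads in PDR and 1027 in SKYD, and an FPKM of 11.2 and 22.1. Its FPKM was 1.98-fold higher in SKYD (95% CI 1.78 to 2.21), a log2 difference of -0.93 (95% CI -1.07 to -0.78). Mvd shared no exonic base and no 100-base window with another annotated gene. The kinases before it in the route, Mvk and Pmvk, had intervals that held 0. Mvk had an FPKM of 3.23 in PDR and 2.99 in SKYD, a log2 difference of 0.08 (95% CI -0.13 to 0.30). Pmvk had 9.59 and 9.16, which gave a log2 difference of 0.06 (95% CI -0.13 to 0.25). The FPKM of Mvd was 3.45 times that of Mvk in PDR and 7.39 times in SKYD.

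Idi1, the isomerase after Mvd, had 452 and 455 reads, with a log2 difference of 0.07 (95% CI -0.09 to 0.23). Fdps, which joins isoprenoid units into farnesyl diphosphate, had 20 and 30 reads, an FPKM of 0.202 and 0.285, and was not compared. Of its exonic bases, 26.7% lie in exons of Gm43738 on the same strand, which was listed at 0 in both libraries, and 21.4% of its windows occur in other genes. How reads in shared exons were assigned is not given in the sources used here, so the level of Fdps is uncertain. Exons of Hmgcs1, Idi1, Scap and Acss2 also overlap genes on the other strand, over 9.12% to 13.2% of their bases, and 21.9% of the windows of Idi1 occur in other genes.

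From squalene to cholesterol, 7 of 10 enzymes were compared, and all 7 lay within 1.5-fold. Of these, 5 were higher in PDR and 2 higher in SKYD, with a median of 0.19. Fdft1, which makes squalene, had an FPKM of 7.46 in PDR and 5.57 in SKYD, a log2 difference of 0.37 (95% CI 0.23 to 0.50). Its exons overlap those of Ctsb, a lysosomal protease gene on the other strand, over 18.3% of their bases, so its reads are uncertain. Sqle, the squalene epoxidase and a control point of the pathway, went the other way, with 223 and 303 reads and with a log2 difference of -0.23 (95% CI -0.40 to -0.07).

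Msmo1, the methylsterol oxidase, had 1708 reads in PDR and 1441 in SKYD, a log2 difference of 0.31 (95% CI 0.21 to 0.40). Nsdhl, the dehydrogenase that acts after it, had 520 and 452 reads, with a log2 difference of 0.26 (95% CI 0.09 to 0.42). Dhcr7, the last reductase, had 240 and 206 reads, with a log2 difference of 0.19 (95% CI 0.02 to 0.36). Ebp and Sc5d, an isomerase and a desaturase of the late steps, were nearly level. Ebp had an FPKM of 42.8 in PDR and 43.7 in SKYD, with a log2 difference of -0.03 (95% CI -0.11 to 0.05). Sc5d had 1028 and 1070 reads, a log2 difference of 0.03 (95% CI -0.08 to 0.14).

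Sterol enzymes below the limit for comparison were Fdps, Lss, Tm7sf2 and Hsd17b7. Tm7sf2, a sterol reductase, had 184 reads in PDR and 61 in SKYD, and its FPKM of 1.40 and 0.436 gave a ratio of 3.21 (95% CI 2.39 to 4.36). Its exons overlap those of Vps51 on the same strand over 12.1% of their bases, and its deposited length of 5593 bases is longer than its 4403 exonic bases in GENCODE M21. Lss, which closes the sterol rings, had 154 and 105 reads. Hsd17b7, the reductase that acts in demethylation with Msmo1 and Nsdhl, went the other way from them, with 51 and 86 reads and an FPKM 1.58-fold higher in SKYD (95% CI 1.11 to 2.29).

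**Figure D2:**
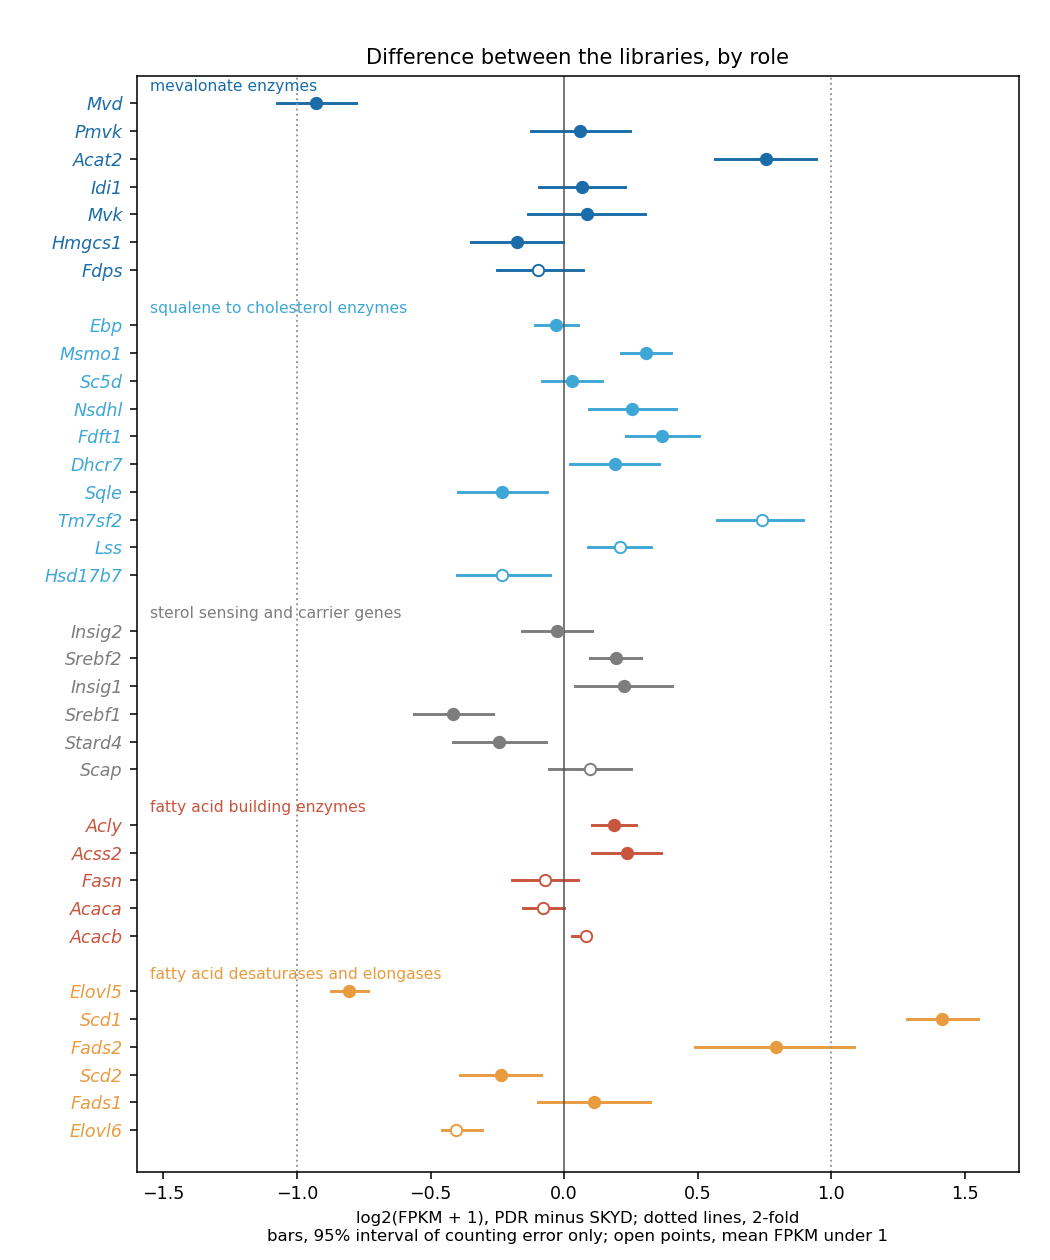
Difference in log2(FPKM + 1), PDR minus SKYD, for each of the 34 genes by role, with bars for the 95% interval of counting error and open points for genes with a mean FPKM under 1. Scd1 lies past the 2-fold line at 1.42, and Mvd at -0.93, Elovl5 at -0.80, Fads2 at 0.79 and Acat2 at 0.76 lie inside it.

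All 5 compared genes of sterol sensing, control and transport lay within 1.5-fold. Srebf2 had 1512 reads in PDR and 1385 in SKYD, a log2 difference of 0.19 (95% CI 0.10 to 0.29). Srebf1 went the other way, with 361 and 559 reads and with a log2 difference of -0.41 (95% CI -0.56 to -0.27). The FPKM of Srebf2 was 3.28 times that of Srebf1 in PDR and 1.94 times in SKYD. Both genes encode membrane-bound proteins that must be cut before they act, so the transcript level does not give the active factor.

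Insig1, itself a target of the SREBPs, had 361 and 318 reads, a log2 difference of 0.22 (95% CI 0.04 to 0.40). Insig2, its partner gene that does not depend on SREBPs to the same extent, had 743 and 807 reads, with a log2 difference of -0.03 (95% CI -0.16 to 0.10). Scap, the escort of the SREBPs, had an FPKM of 1.04 and 0.908, with a mean just below the limit for comparison. Stard4, a soluble sterol carrier, had 156 and 222 reads, with a log2 difference of -0.24 (95% CI -0.41 to -0.07). In this role, 2 genes were higher in PDR and 3 in SKYD, with a median of -0.03.

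The early enzymes of fatty acid synthesis were low apart from Acly. Acly, which makes cytosolic acetyl-CoA from citrate for both branches, had 2199 reads in PDR and 2038 in SKYD, an FPKM of 17.7 and 15.4 with a log2 difference of 0.19 (95% CI 0.11 to 0.27). Acss2, which makes acetyl-CoA from acetate, had 336 and 266 reads, with a log2 difference of 0.23 (95% CI 0.10 to 0.36). Fasn, the fatty acid synthase itself, had 174 and 209 reads. Its FPKM of 0.677 in PDR and 0.764 in SKYD gave a ratio of 0.886 (95% CI 0.720 to 1.09).

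The acetyl-CoA carboxylases, which commit carbon to fatty acids, were lower still. Acaca had 72 and 105 reads, with an FPKM of 0.180 in PDR and 0.246 in SKYD, and 23.7% of its windows occur in other genes. Acacb, the form of oxidative tissue and liver, had 15 and 2 reads, and its FPKM ratio of 7.98 had a counting interval from 1.86 to 71.9.

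Scd1 (ENSMUSG00000037071, chromosome 19 from 44394451 to 44407709 of GRCm38) puts the first double bond into saturated fatty acids. It had 1182 reads in PDR and 396 in SKYD, and an FPKM of 10.4 and 3.28. The FPKM was 3.18-fold higher in PDR (95% CI 2.83 to 3.57), a log2 difference of 1.42 (95% CI 1.28 to 1.55). Scd2, its neighbour on chromosome 19 and the form common in brain and immune cells, went the other way, with 368 and 486 reads and with a log2 difference of -0.24 (95% CI -0.39 to -0.09). Scd1 stood at 3.62 times the FPKM of Scd2 in PDR and at 0.919 times in SKYD, so Scd1 led in PDR and the desaturases stood close in SKYD. Sequence shared with other genes covered 2.58% of the windows of Scd1 and 0.879% of those of Scd2.

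Fads1 and Fads2, neighbours on chromosome 19, make polyunsaturated fatty acids such as arachidonic acid. Fads2 had 143 reads in PDR and 72 in SKYD, an FPKM of 4.04 and 1.91 with a log2 difference of 0.79 (95% CI 0.49 to 1.09). The ratio of its FPKM was 2.11 (95% CI 1.58 to 2.85), and with a pseudocount of 0.1 in place of 1 its difference was 1.04, past 2-fold. The deposited length of Fads2, 1508 bases, is shorter than its 3295 exonic bases in GENCODE M21, and that of Fads1, 3456, is shorter than its 4812, so both levels depend on the annotation. Fads1 had 176 and 167 reads, with a log2 difference of 0.11 (95% CI -0.10 to 0.32).

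Elovl5 (ENSMUSG00000032349, chromosome 9 from 77917364 to 77984519) elongates polyunsaturated fatty acids and was the most read of the 34 genes. It had 2457 reads in PDR and 4631 in SKYD, and an FPKM of 29.7 and 52.6. The level was 1.77-fold higher in SKYD (95% CI 1.69 to 1.86), a log2 difference of -0.80 (95% CI -0.87 to -0.74). No part of its exons or windows was shared with another gene. Elovl6, which elongates saturated fatty acids and is a classic SREBP-1 target, had 5 and 59 reads. Its FPKM of 0.0331 in PDR and 0.367 in SKYD was too low for the comparison and was 11.1-fold higher in SKYD (95% CI 4.49 to 35.4).

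The branches were then set against each other. The median difference was 0.07 over 13 sterol enzymes and 0.19 over 7 fatty acid enzymes, against -0.0035 over all compared genes, and sterol minus fatty acid was -0.12. Without a filter on FPKM, the fatty acid median was 0.081 and sterol minus fatty acid was -0.013. With totals that left out antigen receptor and haemoglobin genes, the medians were 0.17 and 0.30, against 0.10 over all compared genes. The sterol enzymes ran from -0.93 to 0.76, with 11 of 13 within 1.5-fold. The fatty acid enzymes ran from -0.80 to 1.42, with 4 of 7 within 1.5-fold, against the 69.8% of all genes given above. The upper end of the fatty acid range is Scd1 alone, and without it the range ended at 0.79, the value of Fads2. The difference in spread between the branches was not tested. The summed levels did not follow the medians. Summed FPKM of all 17 sterol enzymes was 124 in PDR and 125 in SKYD, and that of all 11 fatty acid enzymes was 69.3 and 81.2. The fatty acid sum was thus lower in PDR while the median of its genes was higher, and Elovl5 alone had 29.7 and 52.6 of these sums. Sterol enzymes took 0.0408% of reads in PDR (95% CI 0.0400 to 0.0416) and 0.0374% in SKYD (95% CI 0.0367 to 0.0382). Fatty acid enzymes took 0.0309% (95% CI 0.0302 to 0.0316) and 0.0332% (95% CI 0.0325 to 0.0339).

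**Figure D3:**
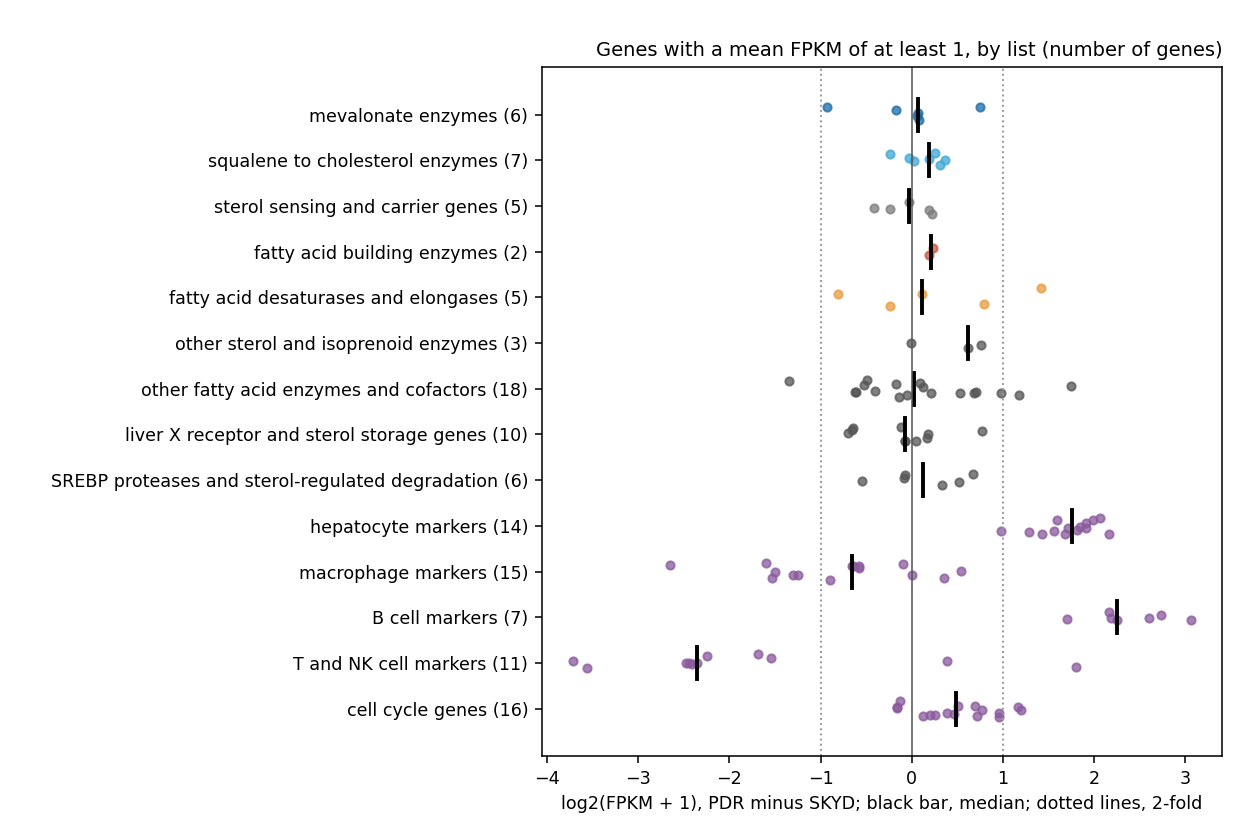
Differences in log2(FPKM + 1), PDR minus SKYD, for genes that averaged 1 FPKM or more, with 1 point for each gene and a black bar for the median of the list. The 5 lists that make up the 34 genes center near 0, with medians from -0.03 to 0.21, while the hepatocyte markers center at 1.76 and the macrophage markers at -0.66.

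Other genes of the same pathways were compared from 3 lists. Of 4 further sterol and isoprenoid enzymes, 3 were compared. Cyp51, the demethylase before Msmo1, had 761 reads in PDR and 432 in SKYD, which gave 0.76 on the log2 scale (95% CI 0.62 to 0.91). Aacs, which activates acetoacetate, differed by 0.62 (95% CI 0.47 to 0.78), and Ggps1, which makes geranylgeranyl diphosphate, by -0.01. None of these was past 2-fold. Among 6 compared genes of 7 for the cleavage of SREBPs and the sterol-driven breakdown of pathway proteins, 3 were higher in each library and none was past 2-fold. Rnf145, a ubiquitin ligase, had a log2 difference of -0.08, and Erlin1, a partner of such ligases, of 0.68.

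Further enzymes and cofactors of fatty acid metabolism were split, with 9 of the 18 compared higher in each library, of 23 listed. The 3 most abundant were Tecr, Hsd17b12 and Elovl1, each higher in SKYD. Tecr, the final reductase of fatty acid elongation, had a log2 difference of -0.40 (95% CI -0.47 to -0.33). Hsd17b12, the ketoacyl reductase of that cycle, had -0.52 (95% CI -0.60 to -0.44), and Elovl1, which elongates saturated very long chains, had -0.49 (95% CI -0.56 to -0.41). Elongation genes of the list went both ways, and one higher in PDR was Elovl2, an elongase of polyunsaturated fatty acids, at 0.98. Its FPKM of 1.99 in PDR and 0.51 in SKYD gave a ratio of 3.86 (95% CI 2.82 to 5.37). Past 2-fold on log2(FPKM + 1) were Elovl3 and Thrsp in PDR and Hacd1 in SKYD. Elovl3, an elongase of liver, skin and brown fat, had 587 and 159 reads, a log2 difference of 1.75. Thrsp, a thyroid hormone-responsive gene of lipid synthesis in liver and fat, had 428 and 171 reads, a log2 difference of 1.18. Hacd1, a dehydratase of the elongation cycle, had 98 and 348 reads, a log2 difference of -1.35.

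Markers of other cells moved between these libraries by more than most synthesis genes did. All 14 compared hepatocyte markers of 15 were higher in PDR, with differences from 0.98 to 2.17 and a median of 1.76. Their summed FPKM was 2433 in PDR and 802 in SKYD, a ratio of 3.03, and none was at 0. Beside them, the 25 compared synthesis genes went both ways, with 16 higher in PDR and 9 in SKYD and a median of 0.08. Of these 25, Scd1, named above as a gene of liver and fat, had an FPKM ratio of 3.18. Of the macrophage markers, 12 of 15 were higher in SKYD, with a median of -0.66 and a summed FPKM of 24950 and 48259 (2733 and 6924 without Lyz2). Of the T and NK cell markers, 9 of 11 were higher in SKYD, with a median of -2.36. The 2 higher in PDR were Ncr1 and Klrb1c, both NK cell genes. Ncr1 had 406 reads in PDR and 96 in SKYD, and Klrb1c had 319 and 243. All 7 compared B cell markers of 9 were higher in PDR (median 2.25), as were 9 of 10 neutrophil markers (median 0.93) and 13 of 16 cell cycle genes (median 0.49). Of the 6 compared erythroid markers, 2 were higher in PDR and 4 in SKYD (median -0.29). Adipocytes are known to make much Scd1, Fasn and Acacb. The 11 adipocyte markers had a summed FPKM of 43.7 in PDR and 124.6 in SKYD, mostly from Fabp4 and Lpl, which macrophages also make. Of the 4 compared, 3 were higher in SKYD and 1 in PDR, with a median of -0.78. The latter was Pck1, a gene of glucose synthesis that also counts among the hepatocyte markers, with 696 reads in PDR and 195 in SKYD and a log2 difference of 1.56. Ucp1, the uncoupling protein that defines brown fat, had 69 reads in PDR and 162 in SKYD, a log2 difference of -0.83, and Cidec, of lipid droplets, had 15 and 42. Adipoq had 13 and 3 reads and Plin1 had 10 and 12, while Lep was listed at 0 in both libraries and Cfd and Slc2a4 were at 0 in PDR. The part of these cells in the differences of the synthesis genes was not tested.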

How the data were processed

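The authors filtered 100-base paired reads, aligned them with TopHat 2.0.9 and Bowtie, counted them per gene with HTSeq 0.6.1 and deposited FPKM with gene length and position. The submitters' processing notes name mm9, but start and end are those of GENCODE M21 (GRCm38) for 98.3% of the 54409 genes in both and for 29 of the 34 genes reported. Reads were recovered here as FPKM times length times a library size, set so that the smallest value above 0 is 1 read. This gave whole numbers (within 0.05) for 100% of genes above 0. A count of 0 allows up to 3 reads, which is 1.30e-05% of reads in PDR and 1.18e-05% in SKYD. HTSeq's strand and overlap settings are not given in the sources used here.

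Where FPKM averaged 1 or more over the libraries, log2(FPKM + 1) was compared, and a difference over 2-fold was counted. No p-value was computed with 1 library a group. All 34 genes are named. Of each list of related genes, the 3 with the highest mean FPKM and those a small count refers to are named, except 1 that is not reported here. Cell type markers are given as lists. Adipoq, Plin1, Lep, Cfd, Slc2a4, Ucp1, Cidec, Pck1, Fabp4 and Lpl were named after their values were seen. So were Lyz2, Ncr1, Klrb1c, Elovl2 and neighbours of the 34 in the genome. The genes and lists were chosen with earlier results of these data known. Sequence sharing was taken from 100-base windows of GENCODE M21 transcripts, and promoters from RefSeq (GRCm38.p6). The steps were tested on simulated data. The computing used scipy 1.17.1 with pandas 2.3.3 and numpy 2.4.6 under Python 3.11.15, and matplotlib 3.10.9 drew the plots.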

Additional observations from a re-analysis of the deposited data

How the results depend on the processing

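No paired analysis was possible because each group had 1 library, and no library could be left out. Over 2-fold, 2 genes were higher in PDR in place of 1 with a pseudocount of 0.1 and also 2 with 0.01, the second being Fads2, while 10.2% and 10.5% of all compared genes were then that much higher in PDR. With 1.5-fold in place of 2-fold, 3 genes were higher in PDR and 2 in SKYD, and with 4-fold, 0 were higher in PDR. Without a filter on FPKM, the fatty acid median was 0.081 in place of 0.19. The other alternatives were a mean FPKM of at least 5, TPM, centring on the median, totals of reads on genes, totals without antigen receptor and haemoglobin genes, other borders of the branches, and no close copies in the fatty acid branch. The filter and the scalings left both counts as they were, and the borders and close copies were run on the medians only. Over these settings the sterol median ran from 0.07 to 0.17 and the fatty acid median from 0.15 to 0.30. The highest of each came from totals without antigen receptor and haemoglobin genes, under which the median of all compared genes was 0.10. The fatty acid median stayed above the sterol median under each setting run, by 0.013 without a filter on FPKM. Ebp and Insig2, nearly level, changed sign with the totals of reads, with and without antigen receptor and haemoglobin genes. Under totals without those genes, 5 of the 25 compared genes left their main counting interval. They were Msmo1, Srebf2, Acly, Ebp and Elovl5, the last at -0.69. A pseudocount of 0.1 moved 2 genes out of theirs and 0.01 moved 3, Scd1 among them both times. Depth limited Acacb, Elovl6 and Fdps, each with under 60 reads in both libraries.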

Other observations

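Genes of the liver X receptor and of sterol storage, which act against the sterol branch or beside it, were not past 2-fold in either direction. Of 10 compared, 4 were higher in PDR and 6 in SKYD, with a median of -0.07. Nr1h2 and Nr1h3, which encode the receptors, had differences of 0.05 and -0.11. Lpcat3, a target that puts polyunsaturated chains into phospholipids, was higher in SKYD by FPKM, at 11.7 in PDR and 18.8 in SKYD, with a log2 difference of -0.64 (95% CI -0.75 to -0.53).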
